A study of Mus musculus with 21 samples.

Results

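Pcp2, Calb1, Cbln1, Cbln3, Atoh1, Barhl1, En1, En2 and Zic4 are 9 genes used as markers of the cerebellum and hindbrain. They were followed in brain RNA of mice that lack the lincRNA linc-Brn1b or the lincRNA Peril. They are 9 of the 40770 genes in the linc-Brn1b table and of the 42760 in the Peril table, and were found by symbol. The set was chosen from measured values of these data, as a check of the regional make-up of the dissections, because Pcp2 was low in the linc-Brn1b knockout at P7. The P7 values are therefore given as a description. RNA-Seq was done on linc-Brn1b+/+ and linc-Brn1b-/- mice, with the telencephalon taken at E13.5 and at E15.5 and the whole brain at P7, and on linc-Sox2+/+ and linc-Sox2-/- brain at E18.5, linc-Sox2 being the sample labels' name for Peril. Each genotype had 2 libraries per age, except for 3 labelled as linc-Brn1b knockout at E15.5, where the study states fewer. In both strains a lacZ reporter cassette took the place of the lincRNA gene in every cell of the animal, and the lines were made from hybrid 129S6SvEv and C57BL/6N embryonic stem cells and crossed to C57BL/6J. Wild-type animals carried neither the deletion nor the cassette.

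The cerebellum forms from the dorsal part of the anterior hindbrain, next to the boundary with the midbrain. En1 and En2 are homeobox transcription factors that pattern this boundary territory. Atoh1 is the basic helix-loop-helix factor of the rhombic lip, from which granule cells and other excitatory hindbrain neurons descend, and Barhl1 is a homeobox factor of the same lineage. Pcp2 and Calb1 are classical Purkinje cell genes, Cbln1 and Cbln3 encode secreted cerebellins of granule cell synapses, and Zic4 is a zinc finger factor of the dorsal neural tube and the granule cell lineage. Granule cells multiply and Purkinje cells mature in the mouse cerebellum around birth and in the first postnatal weeks.

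Expression is given in FPKM (fragments scaled for the length of the transcript and for the number of mapped fragments). The tables hold a single value per group, pooled over its libraries, so the spread between animals and the depth behind each value are unknown. No test, error or interval was computed from these pooled values, and the authors' own test results were not used. The log2 ratios below are those of FPKM + 0.1, with knockout divided by wild type. A gene was called higher or lower when this ratio reached 1.5-fold (0.58 on the log2 scale) and at least 1 of the compared groups had 1 FPKM or more. Such a call describes the pooled libraries and carries no statement on the animals. In whole tissue, fewer cells of a type and less RNA per cell cannot be told apart.

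The groups were alike in the number of genes at 1 FPKM or more, between 13392 and 14445. In the linc-Brn1b knockout, linc-Brn1b was listed at 0 FPKM at all 3 ages, against 1.60 FPKM at E13.5, 2.50 FPKM at E15.5 and 0.799 FPKM at P7 in wild type. The neighbouring Pou3f3 (Brn1) went from 22.7 to 5.81 FPKM at P7. In the Peril strain, the gene linc-Atp11b-4 overlaps the Peril locus. It was 0.0109 FPKM in wild type against 4.65 FPKM in the values taken as knockout. That goes against the assigned genotype, and the paper reports loss of Peril in knockout brain, measured by RT-PCR. The value columns of this strain name both genotypes together and were assigned in the order found for linc-Brn1b. Directions in that strain rest on this assignment alone, and the knockout label of the Peril strain below refers to it. Of the Y chromosome, 4 genes (Uty, Kdm5d, Eif2s3y, Ddx3y) ranged up to 0.0122 FPKM in wild type at P7 and from 2.07 to 11.7 FPKM in knockout, and at E18.5 up to 0.0184 FPKM in wild type and from 2.90 to 13.2 FPKM under the knockout label. At E15.5 they were likewise present in knockout alone, and at E13.5 in wild type alone (8.23 to 16.5 FPKM). Xist, which the inactive X chromosome transcribes, was 92.5 FPKM in Peril wild type and 47.9 FPKM under the knockout label, where the Y chromosome genes were present too. The sex of the animals thus differed, at least in part, between the genotypes of each comparison. Xist was read for the Peril strain alone, so groups of mixed sex in the linc-Brn1b strain could not be seen. With pooled values, the share of sex in a difference cannot be told apart from that of the genotype.

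Promoter sequences are shown for Pcp2, Barhl1 and Atoh1, the genes whose knockout level at P7 was the lowest share of wild type. The RefSeq promoter table, on GRCm38.p6, had entries for 6 of the 9 genes, and En2, Cbln1 and Calb1 were not matched. The 250 bases before the first listed start of each gene are given 5′ to 3′ on the gene's strand, from chr8:3625548-3625797 (minus strand) for Pcp2, chr2:28916669-28916918 (minus strand) for Barhl1 and chr6:64728875-64729124 (plus strand) for Atoh1. Capitals mark CANNTG, the E-box that basic helix-loop-helix factors such as Atoh1 bind. TAATTA, a core recognised by homeobox factors such as En1, En2 and Barhl1, was also searched and was not in these 3 windows. Of further listed starts, Barhl1 has 1 other and Pcp2 has 3, and the Pcp2 window at chr8:3625283-3625532 holds 1 TAATTA and 2 CANNTG. Both motifs equal their own reverse complement, so that a search of this strand covers the other as well.
Pcp2: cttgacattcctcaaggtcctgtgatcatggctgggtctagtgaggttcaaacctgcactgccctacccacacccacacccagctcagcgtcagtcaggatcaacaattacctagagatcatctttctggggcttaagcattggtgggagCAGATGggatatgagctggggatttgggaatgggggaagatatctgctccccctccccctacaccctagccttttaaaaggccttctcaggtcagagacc
Barhl1: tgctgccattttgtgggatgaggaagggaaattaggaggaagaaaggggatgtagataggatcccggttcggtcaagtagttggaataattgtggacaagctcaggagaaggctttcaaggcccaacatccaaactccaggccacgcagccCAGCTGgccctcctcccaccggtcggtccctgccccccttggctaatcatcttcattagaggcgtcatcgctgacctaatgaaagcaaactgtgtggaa
Atoh1: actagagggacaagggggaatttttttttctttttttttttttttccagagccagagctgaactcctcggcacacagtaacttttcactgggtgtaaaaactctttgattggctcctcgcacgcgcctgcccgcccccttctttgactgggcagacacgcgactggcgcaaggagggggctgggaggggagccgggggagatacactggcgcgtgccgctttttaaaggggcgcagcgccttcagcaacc
The Pcp2 and Barhl1 windows hold 1 CANNTG each and the Atoh1 window holds 0. Of 32851 mouse promoters of the same length, 66.2% hold CANNTG and 4.8% hold TAATTA. A match describes letters in a window and is not evidence that a factor binds there.

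In whole brain at P7, all 9 genes had a lower value in the linc-Brn1b knockout than in wild type, with log2 ratios from -0.09 for Calb1 to -3.23 for Pcp2. Among the 7 genes with at least 1 FPKM in either genotype, 5 were called lower (Pcp2, Barhl1, En2, Zic4 and Cbln1) and 0 higher, where 4.58% of all 14521 genes were called lower and 3.78% higher. The choice of the set used this comparison, so nothing is read from that count. Barhl1, En1 and En2 reached 1 FPKM through wild type alone. The median log2 ratio of all 9 was -1.08, where the median of all genes was 0.01.

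**Figure D1:**
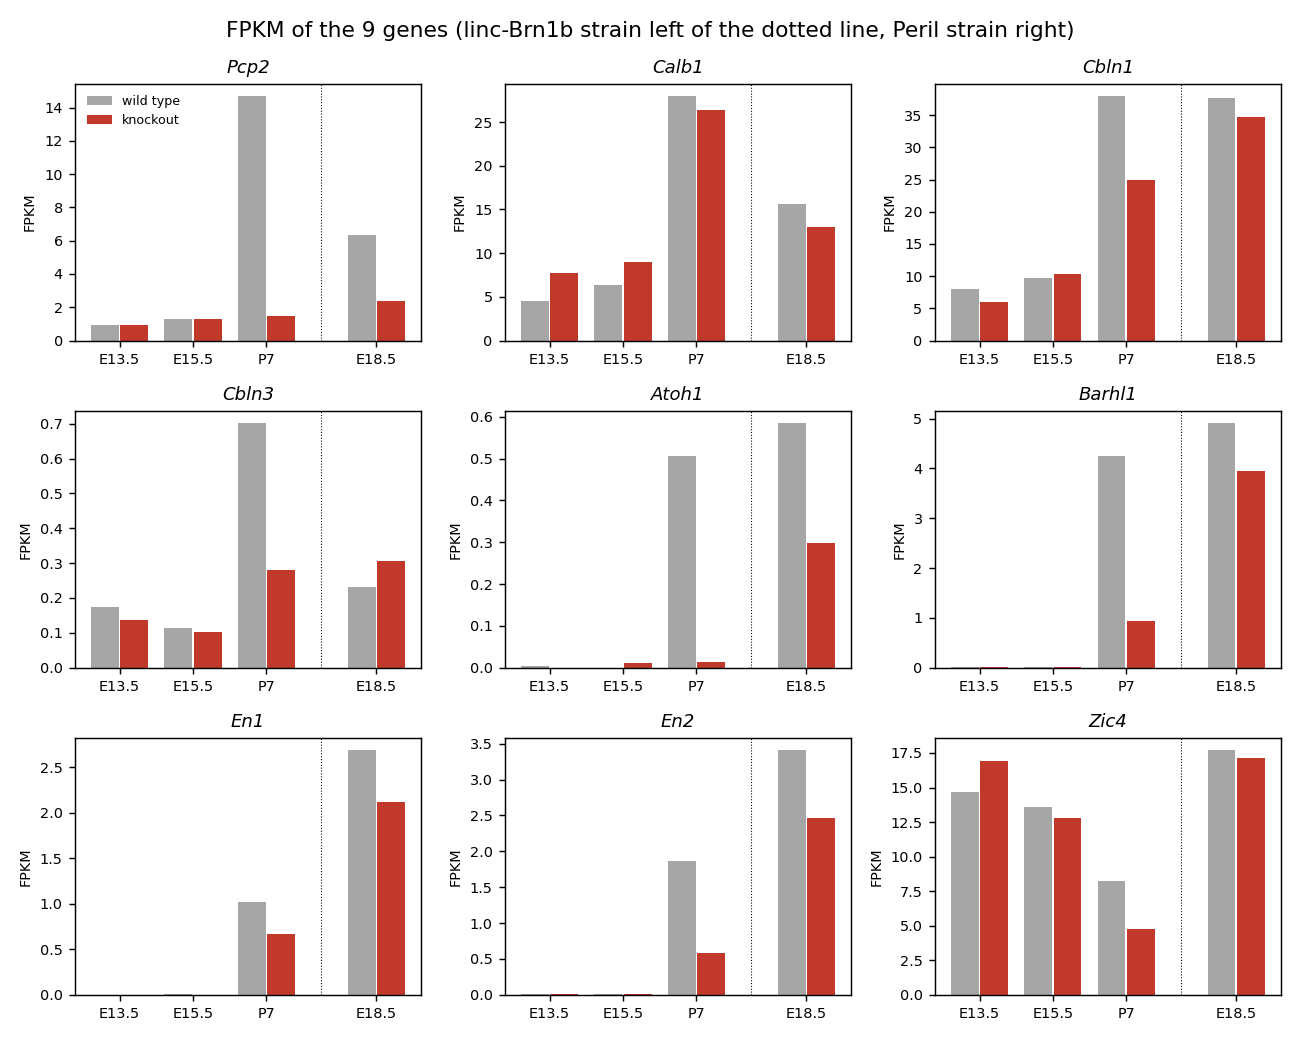
FPKM (vertical axis, from 0, scaled separately for each gene) in wild type (grey) and knockout (red), with 1 pooled value per group and no error, for the linc-Brn1b strain at E13.5, E15.5 (telencephalon) and P7 (whole brain), and beyond the dotted line for Peril E18.5 brain, which was normalized separately. Pcp2 stood at 14.7 FPKM in wild-type P7 brain and at 1.48 FPKM in knockout, while Calb1 stood at 28.01 and 26.4 FPKM.

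Of the Purkinje cell genes, Pcp2, which encodes a modulator of G protein signalling, was 14.7 FPKM in wild type against 1.48 FPKM in knockout at P7. The knockout value was 10.1% of wild type, a log2 ratio of -3.23, and 24 of the 14521 genes had a lower ratio. Calb1, which encodes the calcium buffer calbindin, was 28.01 FPKM in wild type against 26.4 FPKM in knockout (94.2%, log2 ratio -0.09). The pair of classical Purkinje cell markers was therefore split, with Pcp2 among the lowest ratios of the table and Calb1 near equality. The mm9 annotation places Pcp2 on the minus strand of chromosome 8 (3623371 to 3625545), overlapping 2900053A13Rik, and places Calb1 on the plus strand of chromosome 4 (15808411 to 15835211). The Pcp2 row of the linc-Brn1b table extends beyond the annotated gene, to 3621551. Without stranded counting, reads of the Pcp2 overlap could belong to either gene, and 2900053A13Rik was 7.33 FPKM in wild type against 7.07 FPKM in knockout at P7.

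Cbln1, the secreted cerebellin that organises synapses between granule cell axons and Purkinje cells, was 38.0 FPKM in wild type against 24.9 FPKM in knockout (65.6%, log2 ratio -0.61). Cbln3, a cerebellin that depends on Cbln1 for its secretion, was 0.702 and 0.281 FPKM (40.0%, log2 ratio -1.08), below 1 FPKM in both. Cbln1 was just inside the threshold and En1 just outside it. In the linc-Brn1b table the Cbln1 row extends over 89992348 to 90049794 on chromosome 8, beyond the annotated gene, which ends at 89996508. The rows Gm2694 and linc-Cbln1-AS overlap that span, and they went from 4.08 to 1.79 FPKM and from 5.16 to 2.47 FPKM at P7, so the assignment of reads among these 3 rows is uncertain. Cbln3 lies on the minus strand of chromosome 14 (56497757 to 56503093) with no overlapping gene.

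Among the transcription factors of the rhombic lip, Atoh1 was 0.507 FPKM in wild type against 0.0148 FPKM in knockout at P7, which is 2.92% of wild type at a level below 1 FPKM (log2 ratio -2.40). Barhl1 was 4.25 and 0.939 FPKM (22.1%, log2 ratio -2.07), and 38 genes had a lower ratio. Atoh1 is annotated on chromosome 6 (64679140 to 64681227) and Barhl1 on chromosome 2 (28763199 to 28772188), on the plus and minus strand, neither with an overlapping gene.

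The Engrailed genes differed from each other in size of ratio. En2 was 1.87 FPKM in wild type against 0.577 FPKM in knockout (30.9%, log2 ratio -1.54), and En1 was 1.02 and 0.666 FPKM (65.5%, log2 ratio -0.54). En2 was thus called lower and En1 was not. En1 is annotated on chromosome 1 (122498995 to 122505873) and En2 on chromosome 5 (28492236 to 28500152), both on the plus strand, and linc-En1-AS, a row that overlaps En1, was listed at 0 FPKM in every group. Zic4, on the plus strand of chromosome 9 (91257251 to 91284186), was 8.27 and 4.76 FPKM (57.6%, log2 ratio -0.78). Its annotated span overlaps that of Zic1, which was 38.8 and 16.0 FPKM. The Zic4 row of the linc-Brn1b table starts later, at 91263810, and overlaps no other row.

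**Figure D2:**
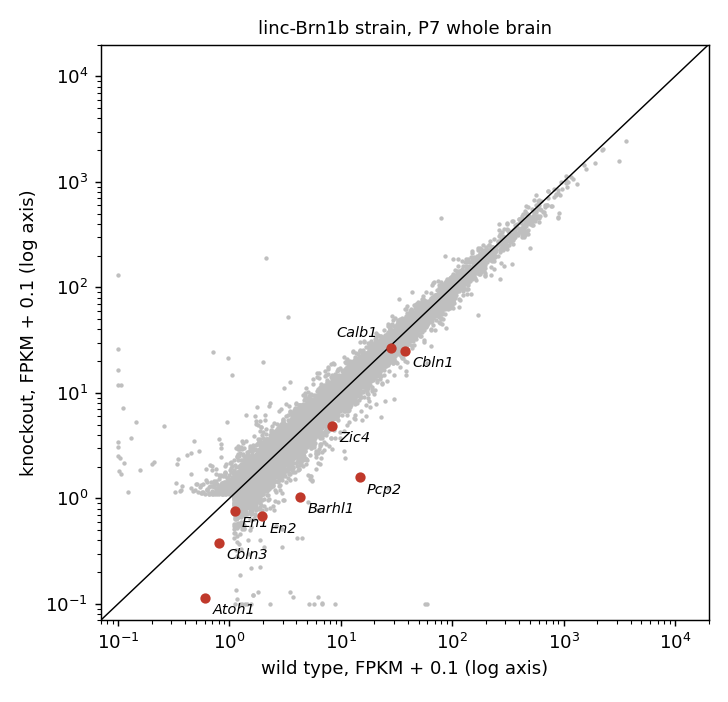
Each grey point is 1 of 14521 genes with at least 1 FPKM in wild type or knockout, plotted as FPKM + 0.1 in wild-type (horizontal) and knockout (vertical) P7 whole brain on log axes, and the red points are the 9 genes, of which Cbln3 and Atoh1 are below 1 FPKM in both. All 9 red points lie on or below the line of equal values, with Pcp2 (14.7 and 1.48 FPKM) at the lower edge of the cloud and Calb1 (28.01 and 26.4 FPKM) close to the line.

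The order of the 9 levels at P7 differed between the genotypes. From the highest, wild type ran Cbln1, Calb1, Pcp2, Zic4, Barhl1, En2, En1, Cbln3 and Atoh1, and knockout ran Calb1, Cbln1, Zic4, Pcp2, Barhl1, En1, En2, Cbln3 and Atoh1. Calb1 at 26.4 FPKM and Cbln1 at 24.9 FPKM were close neighbours in knockout. Whether neighbours in this order differ beyond the spread between animals could not be assessed.

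The telencephalic dissections at E13.5 and E15.5 give the level of these genes in a region in front of the hindbrain. Across these 4 groups, Atoh1 was at most 0.0113 FPKM, En1 at most 0.00772 FPKM, En2 at most 0.0133 FPKM and Barhl1 at most 0.0190 FPKM. Cbln3 stayed between 0.103 and 0.175 FPKM. The other 4 genes had higher values in telencephalon, so the set as a whole is not restricted to cerebellum and hindbrain. Pcp2 was 0.926 to 1.31 FPKM, Calb1 4.53 to 8.96 FPKM, Cbln1 5.94 to 10.3 FPKM and Zic4 12.8 to 16.9 FPKM in these groups. The overlapping 2900053A13Rik was 2.80 to 7.32 FPKM there, so reads counted for Pcp2 in telencephalon could belong to that gene. For Zic4 the telencephalic values were above those of P7 brain in both genotypes. Calb1, Cbln1 and Zic4, the genes with the highest telencephalic levels, also had 3 of the 4 ratios closest to equality at P7, the other being that of En1.

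At E13.5, 3 of the 9 genes had at least 1 FPKM in either genotype, and 1 was called, where 7.10% of all genes were called lower and 3.70% higher. This was Calb1, at 4.53 FPKM in wild type against 7.70 FPKM in knockout, a 1.70-fold higher value (log2 ratio 0.75). Cbln1 was 8.08 and 5.94 FPKM (log2 ratio -0.44), and Zic4 was 14.7 and 16.9 FPKM (log2 ratio 0.20). Pcp2 was 0.926 FPKM in wild type against 0.959 FPKM in knockout.

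At E15.5, 4 of the 9 genes reached 1 FPKM and 0 were called, where 0.578% of all genes were called lower and 0.381% higher. Calb1 was again higher in knockout, at 6.33 FPKM in wild type against 8.96 FPKM in knockout, a 1.41-fold difference (log2 ratio 0.49) below the threshold, and 13583 of 13657 genes had a lower ratio. Pcp2 was 1.30 and 1.31 FPKM, Cbln1 was 9.77 and 10.3 FPKM, and Zic4 was 13.6 and 12.8 FPKM. The 3 last-named genes were within 0.08 of equality on the log2 scale.

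**Figure D3:**
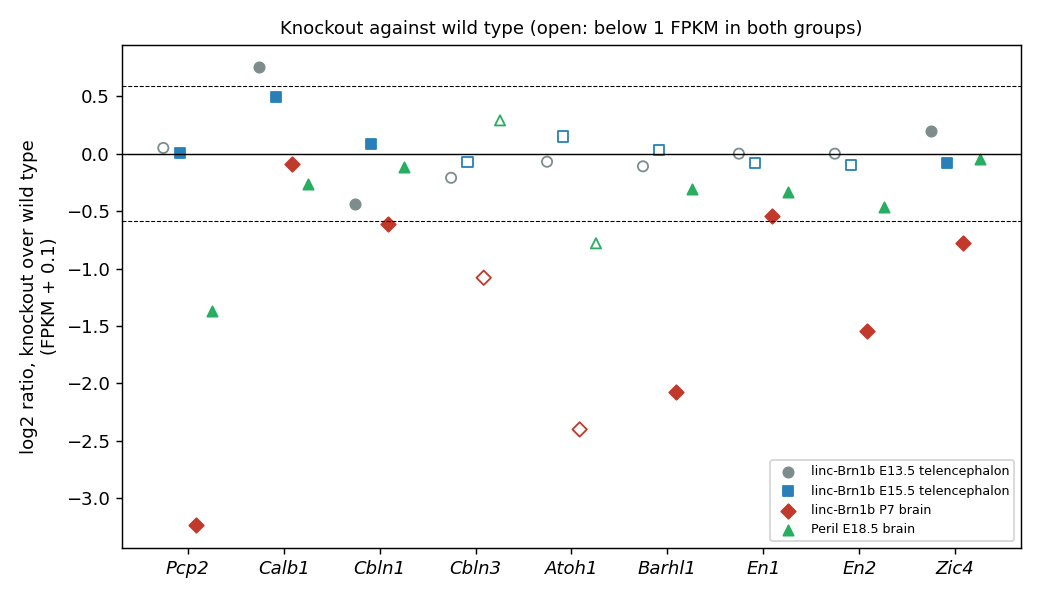
Log2 ratio of knockout over wild type (FPKM + 0.1, vertical axis) for the 9 genes in 4 comparisons, with open symbols where both groups were below 1 FPKM and dashed lines at 1.5-fold. The P7 diamonds run from -3.23 for Pcp2 to -0.09 for Calb1, the E13.5 and E15.5 symbols of Calb1 lie above 0, and the Peril triangle of Pcp2 lies at -1.37.

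Between E13.5 and E15.5, 0 of the 4 genes with at least 1 FPKM were called in wild type, where 12.6% of all genes were called higher and 10.9% lower at the later age. In knockout, 1 of 4 was called, where the shares were 13.3% higher and 11.2% lower. This was Cbln1, which went from 5.94 to 10.3 FPKM (1.74-fold), beside 8.08 to 9.77 FPKM (1.21-fold) in wild type. Pcp2 was 1.40-fold higher at E15.5 in wild type and 1.36-fold higher in knockout.

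From E15.5 to P7 the dissection changed from telencephalon to whole brain, so age and region cannot be told apart. The choice of the set used P7 values, so nothing is read from the counts of this paragraph. In wild type, 6 of 7 genes were called higher at P7, where 27.6% of all genes were. Of the 6, Barhl1, En1 and En2 reached 1 FPKM at P7 alone. Zic4 was called lower, and 25.66% of all genes had a still lower ratio. In knockout, 2 of 4 were called higher, where 28.4% of all genes were. Zic4 was again called lower, and 8.88% of all genes had a still lower ratio. Pcp2 went from 1.30 to 14.7 FPKM in wild type (11.3-fold) and from 1.31 to 1.48 FPKM in knockout (1.13-fold). The Pcp2 level of the knockout P7 brain was thus close to that of E15.5 telencephalon. Barhl1 was 0.0167 FPKM at E15.5 and 4.25 FPKM at P7 in wild type, and 0.0190 and 0.939 FPKM in knockout, so this gene was above its telencephalic level in both genotypes. En2 likewise went from 0.0133 to 1.87 FPKM in wild type and from 0.00546 to 0.577 FPKM in knockout. Atoh1, in contrast, was 0.0113 FPKM at E15.5 and 0.0148 FPKM at P7 in knockout. Calb1 was 4.42-fold higher at P7 than at E15.5 in wild type and 2.95-fold higher in knockout, and Cbln1 3.89-fold and 2.42-fold higher.

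In E18.5 brain of the Peril strain, Pcp2 was 6.34 FPKM in wild type against 2.39 FPKM in the libraries labelled knockout. That is 37.7% of wild type (log2 ratio -1.37), and 60 of 14729 genes had a lower ratio. Were the labels of this strain exchanged, Pcp2 would be 2.65-fold higher in knockout. Of the 7 genes with at least 1 FPKM, 1 was called lower, and this was Pcp2, while 0 were called higher, where 1.83% of all genes were called lower and 2.46% higher. The other 6 lay between the thresholds. The median log2 ratio of all 9 was -0.31, beside 0.00 for all genes.

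En2 was 3.41 and 2.46 FPKM (72.1%), En1 was 2.69 and 2.12 FPKM (78.7%), and Barhl1 was 4.91 and 3.95 FPKM (80.4%) in this strain. Calb1 was 15.6 and 13.04 FPKM (83.5%), Cbln1 was 37.7 and 34.7 FPKM (92.2%), and Zic4 was 17.7 and 17.1 FPKM (96.8%). All 6 values were lower in the libraries labelled knockout, by less than 1.5-fold. Atoh1 was 0.585 and 0.298 FPKM (51.1%) and Cbln3 was 0.231 and 0.305 FPKM (132%), both below 1 FPKM, and Cbln3 alone of the 9 was higher in the libraries labelled knockout. The tables of both strains were normalized separately, and their levels are not set against each other here.

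The 9 genes were next read beside longer lists of genes of the same cell types and of neighbouring brain regions. For the P7 counts below, the shares over all genes are the 4.58% called lower and 3.78% called higher given above. Of 15 granule cell genes, which share Zic1 and Zic2 with the list of Zic genes, 12 were below and 3 above wild type at P7. Of the 13 with at least 1 FPKM, 10 were called lower and 0 higher in knockout, with a median log2 ratio of -1.28. The 3 above wild type were Calb2 at 76.1 and 99.4 FPKM, Grm4 at 8.67 and 12.2 FPKM, and Etv1 at 14.9 and 18.2 FPKM. Of the 10 called lower, 3 reached 1 FPKM in wild type alone, Nhlh1 and Fat2 among them. Nhlh1, a basic helix-loop-helix factor of early postmitotic granule cells, was 1.77 FPKM in wild type against 0.125 FPKM in knockout (log2 ratio -3.05). Fat2, a protocadherin of granule cells, was 1.15 and 0.0862 FPKM (log2 ratio -2.74). Some genes of this list are transcribed in telencephalon too. In the telencephalic groups Nhlh1 was 7.86 to 21.0 FPKM, while Fat2 was at most 0.0287 FPKM. The Zic family, with 4 of its 4 listed genes below wild type and 3 called lower, had a summed level of 61.6 FPKM in wild type against 27.6 FPKM in knockout. Zic1 was 38.8 and 16.0 FPKM (log2 ratio -1.28), and Zic2 was 16.9 and 7.61 FPKM (log2 ratio -1.14).

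Of 15 Purkinje cell genes other than Pcp2 and Calb1, 14 had at least 1 FPKM, and 5 were called lower, 0 higher and 9 neither, with a median log2 ratio of -0.16. Of these 5, 1 reached 1 FPKM in wild type alone. Lhx1, a LIM homeobox factor of developing Purkinje cells, was 2.85 and 1.02 FPKM (log2 ratio -1.40). Car8, a carbonic anhydrase related protein abundant in Purkinje cells, was 15.2 and 6.67 FPKM (log2 ratio -1.18). Of the 15 genes, 11 were below and 4 above wild type. Several genes of this list are transcribed in other brain regions too, and its summed level was 492 FPKM in wild type against 535 FPKM in knockout. Pcp4, at 310 and 359 FPKM, made up most of both sums. Of 7 cerebellar ventricular zone genes, 2 reached 1 FPKM, and Gdf10 was called lower at 11.8 and 6.72 FPKM.

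**Figure D4:**
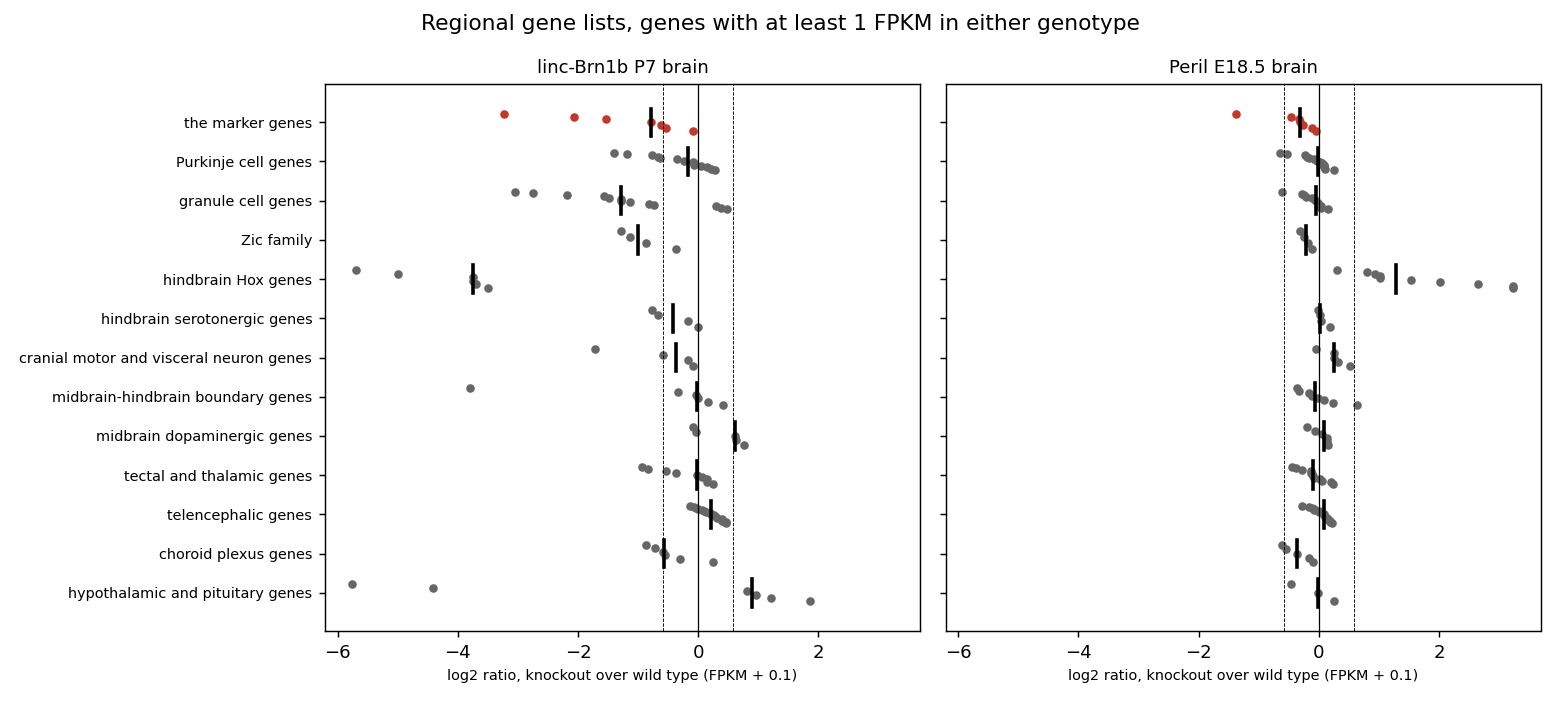
Log2 ratio of knockout over wild type (FPKM + 0.1, horizontal axis, the same in both panels) for each gene with at least 1 FPKM in either genotype, by regional list, in linc-Brn1b P7 brain (left) and Peril E18.5 brain (right), where dots are genes, black bars list medians, dashed lines 1.5-fold and red dots the marker genes Pcp2 to Zic4. The hindbrain Hox genes lie to the left at P7 (median -3.75) and to the right at E18.5 (median 1.28), and the telencephalic genes stay between the dashed lines in both.

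The hindbrain Hox genes, which give positional identity to the hindbrain behind its most anterior segment and to the spinal cord, had a median log2 ratio of -3.75 at P7 among those with at least 1 FPKM, beside -0.78 for the marker genes. Of 16 genes, 15 were lower in knockout and Hoxb1 was listed at 0 in both genotypes, and all 6 genes with at least 1 FPKM were called lower, through wild type alone. Their summed level was 18.9 FPKM in wild type against 0.136 FPKM in knockout. Hoxb5 was 3.61 and 0.0165 FPKM (log2 ratio -4.99), and Hoxa5 was 5.06 FPKM in wild type and listed at 0 in knockout. In the telencephalic groups no Hox gene of this list was above 0.00996 FPKM.

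Other hindbrain lists held fewer called genes. Of 5 serotonergic genes, 4 had at least 1 FPKM and 2 were called lower, namely Tph2, the rate-limiting enzyme of serotonin synthesis in neurons, at 2.87 and 1.65 FPKM, and Slc6a4, the serotonin transporter, at 4.90 and 3.04 FPKM. All 8 genes of cranial motor and visceral neurons were below wild type, with 4 at 1 FPKM or more and 1 called lower, Mab21l2, at 5.20 and 1.52 FPKM. Of 12 midbrain-hindbrain boundary genes beyond En1 and En2, 6 had at least 1 FPKM and 1 was called lower. This was Pax2, a paired box factor of the boundary and of cerebellar interneuron precursors, at 1.70 and 0.0295 FPKM (log2 ratio -3.80), so that it reached 1 FPKM in wild type alone.

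Lists of regions in front of the hindbrain differed among themselves at P7. Of 8 midbrain dopaminergic genes, 4 were below and 4 above wild type, and of the 5 with at least 1 FPKM 3 were called higher and 0 lower. Nr4a2 (Nurr1) was 8.73 and 14.9 FPKM and Slc6a3, the dopamine transporter, was 2.91 and 4.56 FPKM. Nr4a2 was also 7.06 to 9.86 FPKM in the telencephalic groups, so it does not mark midbrain alone. Of 12 tectal and thalamic genes, 7 were below wild type, and of the 9 with at least 1 FPKM 2 were called lower and 0 higher, Irx5 at 1.16 and 0.560 FPKM and Irx2 at 2.94 and 1.61 FPKM. Irx5 reached 1 FPKM in wild type alone. Irx2 also had the profile nearest to that of Barhl1, given below, so it is not read as marking tectum and thalamus alone. Of 18 telencephalic genes, 17 had at least 1 FPKM and 0 were called in either direction, with a median log2 ratio of 0.21. Whether the portion of hindbrain in the P7 dissections differed between the genotypes was not tested, since no measure other than RNA was used here.

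In telencephalon, the same lists held few called genes. At E13.5, where 7.10% of all genes were called lower and 3.70% higher, 0 of 10 Purkinje cell genes with at least 1 FPKM were called, and of 12 granule cell genes 1 was, the calcium binding protein gene Calb2, at 12.8 FPKM in wild type against 8.21 FPKM in knockout (log2 ratio -0.63). The Calb1 value, higher in knockout at that age, thus had no called companion in the Purkinje cell list. Of 4 ventricular zone genes, Gsx1 was called lower, at 2.10 and 0.882 FPKM, and of 6 boundary genes Fgf18 was called higher, at 0.944 and 1.87 FPKM. Gsx1 reached 1 FPKM in wild type alone and Fgf18 in knockout alone. At E15.5, 0.578% of all genes were called lower and 0.381% higher. Of the lists, 0 of 10 Purkinje cell genes, 0 of 12 granule cell genes and 0 of 4 Zic genes were called. Of 5 boundary genes 1 was called lower. This was Otx2, which sets the midbrain side of the boundary and is also used by choroid plexus, at 5.69 and 3.53 FPKM.

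In the Peril strain at E18.5, the same lists were mostly between the thresholds, while the Hox genes lay on the other side. Of all genes, 1.83% were called lower there. Of 14 Purkinje cell genes with at least 1 FPKM, 1 was called lower, Car8, at 6.68 and 4.25 FPKM (log2 ratio -0.64). Of 12 granule cell genes, 1 was called lower, Mfap4, at 12.4 and 8.08 FPKM (log2 ratio -0.61), and 0 of 4 Zic genes were called. Among 10 Hox genes with at least 1 FPKM, 9 were called higher in the libraries labelled knockout, where 2.46% of all genes were, and 7 of the 9 reached 1 FPKM in those libraries alone. The summed level of the list was 7.25 FPKM in wild type against 29.0 FPKM in the libraries labelled knockout. Hoxb5 was 0.611 and 6.63 FPKM (log2 ratio 3.24) and Hoxb6 was 0.0510 and 1.32 FPKM (log2 ratio 3.23). Hox genes of lower number differed less. Hoxb3 was 1.27 and 2.30 FPKM (log2 ratio 0.81), and Hoxa2, the gene not called, was 1.14 and 1.45 FPKM (log2 ratio 0.31). Lmx1b, a boundary gene also used by serotonergic and dopaminergic neurons, was called higher at 1.34 and 2.13 FPKM. With the labels exchanged, all directions given for this strain would turn, those of the Hox genes and of Pcp2 alike.

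The genes with profiles most like each marker over the 6 linc-Brn1b groups were named by the smallest root mean square difference of log2(FPKM + 0.1) after subtraction of each gene's own mean, among 13515 genes. For Pcp2 these were Cnpy1 (0.22), Hoxb6 (0.23) and Hoxc4 (0.24). Hoxb6 and Hoxc4 were at most 0.00978 FPKM outside wild-type P7 brain, so their distances depend on the added 0.1 FPKM. Cnpy1, a gene of the midbrain-hindbrain boundary, was 6.19 FPKM in wild type against 0.671 FPKM in knockout at P7, and at most 0.430 FPKM in telencephalon. For Barhl1 the nearest were Irx2 (0.38), Car8 (0.40) and Glra1 (0.41), and for En2 they were Paqr6 (0.18), IL-TIFb (0.19) and Tph2 (0.25). For En1 they were Msln (0.11), AU021034 (0.11) and Syt2 (0.12). For Calb1 they were PGC-1v (0.11), Xlr (0.12) and BC049635 (0.13), and for Cbln1 they were Pdk4 (0.10), Efcab10 (0.11) and Ccl6 (0.11). For Zic4 they were Rbm12 (0.05), Ccdc15 (0.06) and Traf6 (0.08). Atoh1 and Cbln3 were below 1 FPKM in all 6 groups and were not compared. The 6 points share their normalization, and the likeness is a description over groups of which 2 are P7 brain. Values of those 2 groups were used to choose the set.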

How the data were processed

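Total RNA of 17 libraries in 8 groups, of 21 libraries in the series, bears on these results, and the Fendrr lung libraries were not used. TruSeq libraries were sequenced as paired-end 101 bp reads, which the authors aligned to mm9 with Tophat2, assembled with Cufflinks (2.0.2 in the submitters' processing notes) and quantified with Cuffdiff2 at default options. The deposited FPKM values were scaled by Cuffdiff2 and given by the authors as 1 value per group, with 0 columns per library. Depth and the spread between libraries are therefore unknown, and no test, interval or detection floor was computed. The labels number the animals, but neither these numbers nor the number of libraries entered any value. The deposited tables also hold the authors' fold changes, test statistics, p-values and q-values, which were not used.

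In the linc-Brn1b table, value columns were assigned to groups from the group that different comparisons share, whose value was equal for 40770 of 40770 genes. The Peril columns were assigned in the same order by analogy, which was not checked within that strain. Log2 ratios were computed from FPKM + 0.1 in Python 3.11.15 (numpy 2.4.6, pandas 2.3.3), with calls at 1.5-fold and at least 1 FPKM in either group, and the calls were tested on simulated data. Starts in the tables count from 0, and 1 was added. Annotation is GENCODE for mm9 (NCBIM37), and promoter sequences are those of RefSeq on GRCm38.p6, whose coordinates are given separately. Ppp1r17 was matched under its older symbol Gsbs. Named were the 9 genes, from each of 15 lists up to 2 called genes furthest from equality in each direction, the label checks, and for each marker the 3 genes with the nearest profile, leaving out Gm, Rik, XLOC and linc names. Genes named only because they overlap a marker, as well as Hoxb1, Pou3f3, Grm4, Etv1, Hoxa2, Hoxb3 and the P7 values of Calb2, were chosen after their values were seen. So were Pcp4 and the P7 and E18.5 values of Ttr. A gene of these lists, and the list of cerebellin partners that rests on it, are not reported here. Members and lists were chosen with earlier results of these data known. Alternatives were other pseudocounts, minimum levels, a 2-fold call and centring on the median ratio.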

Additional observations from a re-analysis of the deposited data

How the results depend on the processing

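Leaving out a replicate was not done, as each group has 1 pooled value. No paired analysis was possible because the tables hold no values per library. Pseudocounts of 1 and 0.01 FPKM, minimum levels of 0.1 FPKM or none, a 2-fold call and centring on the median of all genes were tried. Of 216 recomputed ratios of the 9 genes, 215 kept their call at the minimum of 1 FPKM, and the exception was En1 at P7, whose log2 ratio of -0.60 with a pseudocount of 0.01 was called lower. Whatever the level, 12 ratios crossed 1.5-fold, 7 of them between genotypes. With a pseudocount of 1, Cbln3 and Atoh1 at P7 had log2 ratios of -0.41 and -0.57, and with 0.01 Atoh1 had 1.09 at E15.5. The ratio of 1 gene changed sign, that of Pcp2 at E13.5, from 0.05 to -0.02 when centred. With a 2-fold call, 3 genes instead of 5 were called at P7, 0 instead of 1 at E13.5 and 0 instead of 1 between E13.5 and E15.5 in knockout. With a minimum of 0.1 FPKM or none, 2 genes were called in the Peril strain, since Atoh1 was added, 7 instead of 5 at P7, since Atoh1 and Cbln3 were added, 9 instead of 7 between E15.5 and P7 in wild type, and 7 instead of 3 between these ages in knockout. Atoh1 and Cbln3 were below 1 FPKM in all 8 groups, and the depth behind their values is unknown.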

Other observations

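Some lists that are neither cerebellar nor hindbrain also held called genes, beside which the marker genes were read. At P7, 6 of 8 hypothalamic and pituitary genes had at least 1 FPKM in either genotype, of which 2 were called lower and 4 higher in the linc-Brn1b knockout, where 4.58% and 3.78% of all genes were. Gh, growth hormone, was 6.19 FPKM in wild type against 0.0157 FPKM in knockout, and Pomc, the precursor of pituitary peptide hormones, was 26.6 and 1.15 FPKM. Gh reached 1 FPKM in wild type alone. The hypothalamic peptide genes Avp and Oxt went the other way, from 2.98 to 11.1 FPKM and from 1.80 to 4.29 FPKM.

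Choroid plexus genes were summed to 456 FPKM in wild type against 311 FPKM in knockout at P7, with 3 of 6 called lower, where 4.58% of all genes were. Kcne2, a potassium channel subunit of choroid plexus epithelium, was 1.89 and 0.997 FPKM, and Folr1, a folate receptor, was 5.20 and 3.12 FPKM. Kcne2 reached 1 FPKM in wild type alone. At E15.5 all 5 choroid plexus genes with at least 1 FPKM were called lower, where 0.578% of all genes were and 4 of the 5 reached 1 FPKM in wild type alone, with Ttr (transthyretin) at 231 FPKM in wild type against 1.39 FPKM in knockout. In the Peril strain the choroid plexus sum was 837 FPKM in wild type against 576 FPKM in the libraries labelled knockout. There, 1 of 5 choroid plexus genes with at least 1 FPKM was called lower, where 1.83% of all genes were. Ttr made up most of the sums at P7 (443 and 301 FPKM) and at E18.5 (807 and 551 FPKM), and was called in neither. Of 5 erythroid genes, 3 were in the tables and 2 had at least 1 FPKM. Hbb-b1, an adult beta globin gene, was called lower at E13.5, at 106 and 34.8 FPKM, where 7.10% of all genes were. It was also called lower under the Peril knockout label at E18.5, at 89.2 and 52.8 FPKM, where 1.83% of all genes were. At E15.5 and P7, 0 of the erythroid genes were called. The part of these genes' tissues in the values of the marker genes was not tested.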
